A study of Rattus norvegicus with 4 samples.

Results

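The insulin-like growth factor (IGF) genes described here are 9 members found by their symbols in the deposited expression table of 14137 gene identifiers: the ligand Igf1, the receptors Igf1r and Igf2r, and the 6 IGF-binding proteins Igfbp2, Igfbp3, Igfbp4, Igfbp5, Igfbp6 and Igfbp7. Each was found on 1 row. The cells were neonatal rat ventricular cardiomyocytes, heart muscle cells in a primary culture that can also hold fibroblasts and vessel cells, and their RNA was sequenced. One group of 2 libraries came from cells infected with lentivirus for a short hairpin RNA against Crat, and the other group of 2 from cells infected with lentivirus for a control hairpin. RNA was taken 5 days later. The labels name the groups KO and WT, while the design text describes hairpins, so they are called Crat hairpin and control here. Crat encodes carnitine acetyltransferase, a mitochondrial enzyme of acetyl group transfer. The comparison asks how these cells differ once Crat is depleted, in a study concerned with dilated cardiomyopathy. How many hairpin sequences were used, the rat strain, and whether replicate libraries stand for separate cultures are not given in the labels, so p-values measure the spread between these libraries, which may be technical.

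IGF1 is a secreted hormone that binds the receptor tyrosine kinase IGF1R, which signals through insulin receptor substrates to PI3K and AKT and through SHC to the RAS pathway. In the heart this route is known for growth and survival of muscle cells. IGF-binding proteins hold IGFs outside the cell and set how much ligand reaches the receptor, and IGF2R, which has no kinase, takes up IGF2 and carries lysosomal enzymes.

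Values are reads scaled to the library total (RPM) and are not divided by gene length, so levels are compared between libraries and never between genes. Depth was uneven: 321516 and 1622998 reads in Crat hairpin replicates 1 and 2, and 23680064 and 1321735 in control replicates 1 and 2. A single read was worth 3.11 and 0.616 RPM in the Crat hairpin libraries and 0.0422 and 0.757 RPM in the control libraries. Crat stood at 24.9 and 19.7 RPM in the Crat hairpin libraries and at 148 and 156 RPM in the control libraries, a log2 fold change of -2.72 ± 0.19 (SE). Fold changes are on the log2(RPM + 1) scale, as Crat hairpin over control, and were tested with limma with Benjamini-Hochberg adjustment over 12949 genes at a threshold of 0.05. Of all genes tested, 12.6% were higher and 6.36% lower in the Crat hairpin libraries (19.0% in all). The median log2 fold change of all genes was 0.15, against -0.03 under median-of-ratios scaling, -0.04 under TMM scaling and -0.03 under quantile normalization, so the distance from that median is given for each member called. That scaling also sets the balance of calls: 66.5% of all calls were rises as deposited, and 45.4% under median-of-ratios scaling.

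Of the 9 IGF genes, Igf1 and Igfbp3 rose, Igf2r and Igfbp7 fell, and 5 did not pass the test. With 4 calls among 9 genes against 19.0% of all genes, the number is small and is given as a description. The same 4 genes had groups that did not overlap, a condition met by 60.8% of all genes tested. The median log2 fold change of the 9 genes was -0.27, beside 0.15 over all genes tested. That median was -0.01 without Crat hairpin replicate 1, -0.07 over the 8 genes tested without Crat hairpin replicate 2, and -0.46 with median-of-ratios scaling.

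**Figure D1:**
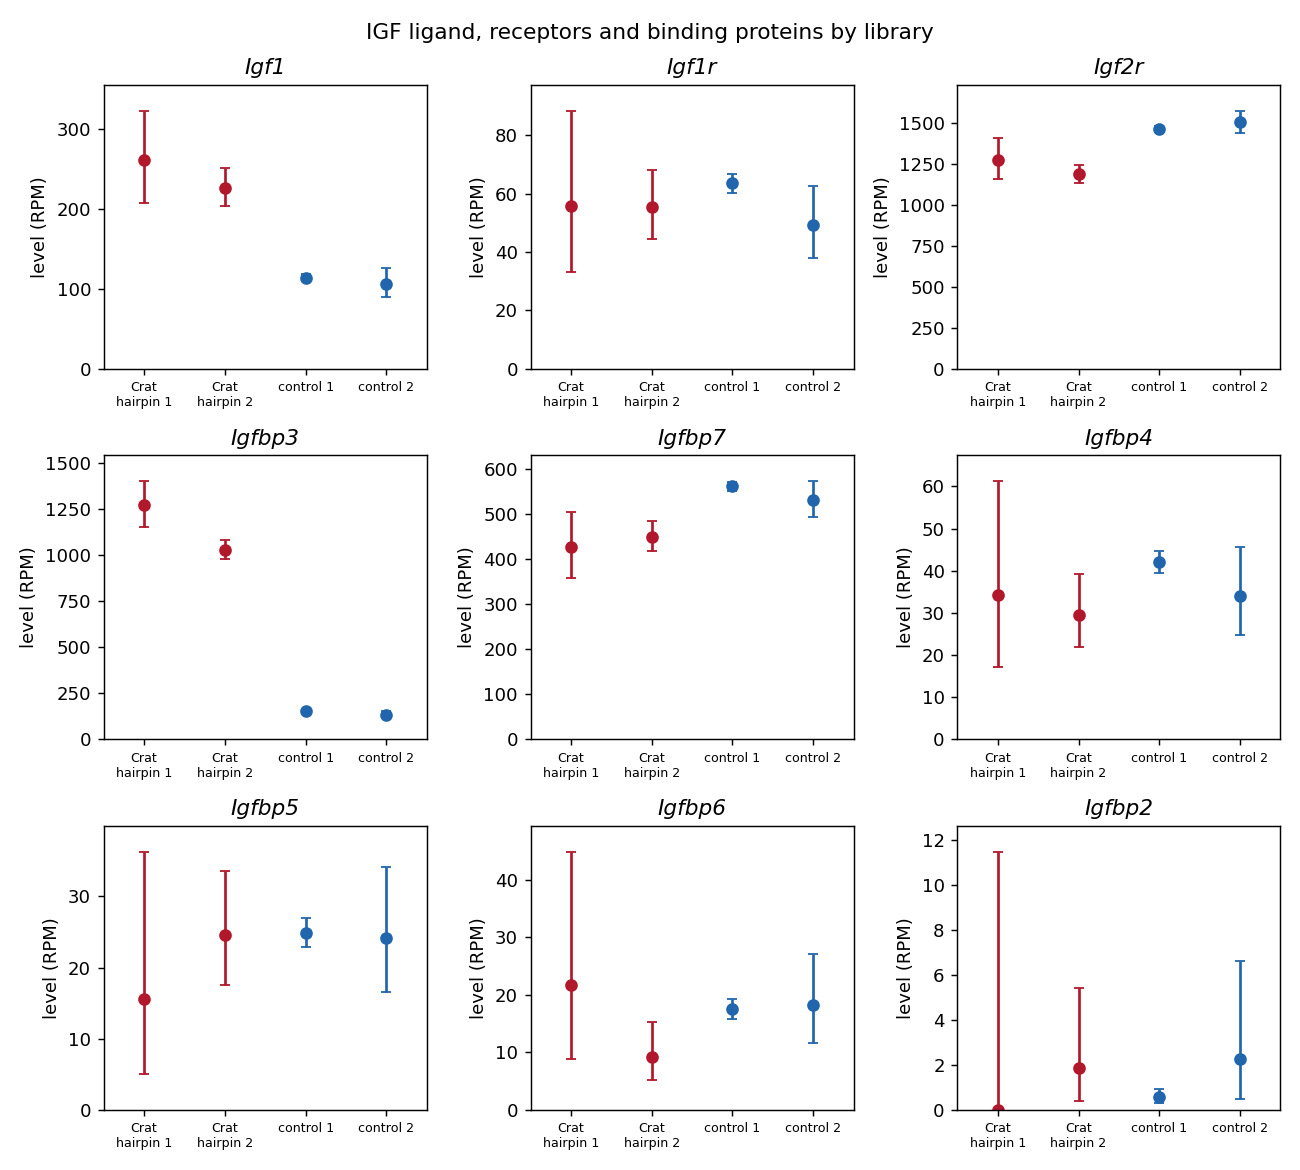
Level of each IGF gene in RPM (vertical axes from 0) in the 2 Crat hairpin libraries (red, left) and the 2 control libraries (blue, right), with exact 95% Poisson intervals of the reads, which cover counting error only. Igfbp3 reaches 1272 and 1030 RPM in the Crat hairpin libraries, against 152 and 132 RPM in the control libraries. The groups of Igf1 are likewise apart.

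Igf1, the ligand, stood at 261 and 227 RPM in the Crat hairpin libraries and at 114 and 107 RPM in the control libraries. Both Crat hairpin libraries lay above both controls. The values rest on 84 and 368 reads in the Crat hairpin libraries and on 2699 and 141 reads in the control libraries. Group means were 244 ± 24.4 RPM and 110 ± 5.16 RPM (SD, n = 2 each), a 2.20-fold difference on the RPM + 1 scale, and Igf1 rose by 1.14 ± 0.12 on the log2 scale (SE; limma adjusted p = 1.5e-04), which is 0.99 above the median of all genes. The rise lay between 0.85 and 1.24 in all 17 alternatives. It missed the threshold in 1 of them, without a variance trend (limma adjusted p = 0.0703). The authors' deposited table gives Igf1 an adjusted p of 0.0023.

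Igf1r, the signalling receptor, stood at 56.0 and 55.5 RPM in the Crat hairpin libraries and at 63.6 and 49.2 RPM in the control libraries. The Crat hairpin values lay between those of the controls. Its log2 fold change was -0.01 ± 0.19 (SE; limma adjusted p = 0.991), with a 95% interval from -0.44 to 0.43, so a change of moderate size in either direction lies within the error. Crat hairpin replicate 1 held 18 reads of it.

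Igf2r, the mannose 6-phosphate and IGF2 receptor, stood at 1275 and 1185 RPM in the Crat hairpin libraries and at 1464 and 1505 RPM in the control libraries. Both Crat hairpin libraries lay below both controls, and each of the 4 libraries held at least 410 reads. Igf2r fell by 0.27 ± 0.06 on the log2 scale (SE; limma adjusted p = 0.0079), which is 0.42 below the median of all genes (-0.42). The size depends on scaling: the Igf2r log2 fold change was -0.46 under median-of-ratios scaling and -0.48 under TMM scaling, and -0.25 under quantile normalization. The call was lost without control replicate 1 (adjusted p = 0.132), and the adjusted p was 0.350 when the variance trend was left out. The authors' deposited table gives Igf2r an adjusted p of 2.2e-08.

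The promoter window of Igf2r is shown because it holds a pair of matches to CACGTG, the palindromic E-box core, in capitals. RefSeq windows run from 250 bases before to 50 bases after an annotated start, 5′ to 3′ on the gene's strand. This one is chr1:50526628-50526927, plus strand, build GRCr8, and the matches begin at positions -125 and -85 relative to the start.
Igf2r: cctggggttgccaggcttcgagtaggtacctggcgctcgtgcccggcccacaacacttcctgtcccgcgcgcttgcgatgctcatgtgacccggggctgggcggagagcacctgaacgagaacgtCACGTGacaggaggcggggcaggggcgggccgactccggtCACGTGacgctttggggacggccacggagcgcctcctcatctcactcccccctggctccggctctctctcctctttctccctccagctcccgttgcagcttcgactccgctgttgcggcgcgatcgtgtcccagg
Of 33469 rat promoter windows of the same length, 6.42% hold CACGTG. Igf1r and Igfbp2 hold 1 match each, and neither of these genes passed the expression test.

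Igfbp3, the main carrier of IGFs in blood, changed most among the 9 genes by size of log2 fold change. It stood at 1272 and 1030 RPM in the Crat hairpin libraries and at 152 and 132 RPM in the control libraries. Every Crat hairpin value was several times every control value. The reads behind them were 409 and 1671 in the Crat hairpin libraries and 3593 and 175 in the control libraries, enough that counting error is small beside the difference. Group means were 1151 ± 171 RPM and 142 ± 13.7 RPM (SD, n = 2 each), an 8.05-fold difference on the RPM + 1 scale. Igfbp3 rose by 3.0 ± 0.11 on the log2 scale (SE; limma adjusted p = 1.0e-07), 2.86 above the median of all genes, and was 136th by size of rise among 12949 genes. It was called in all 17 alternatives, with log2 fold changes from 2.70 to 3.16 and adjusted p of at most 0.0248. The authors' deposited table gives Igfbp3 an adjusted p of 1.6e-107.

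The promoter window of Igfbp3 is shown beside that of Igf1 because these are the members that rose. That of Igfbp3 is chr14:86277895-86278194, minus strand, and that of Igf1 is chr7:24172282-24172581, plus strand, both RefSeq on GRCr8. The RefSeq span of Igf1 reaches further upstream than its window, so the window covers 1 start of that gene.
Igfbp3: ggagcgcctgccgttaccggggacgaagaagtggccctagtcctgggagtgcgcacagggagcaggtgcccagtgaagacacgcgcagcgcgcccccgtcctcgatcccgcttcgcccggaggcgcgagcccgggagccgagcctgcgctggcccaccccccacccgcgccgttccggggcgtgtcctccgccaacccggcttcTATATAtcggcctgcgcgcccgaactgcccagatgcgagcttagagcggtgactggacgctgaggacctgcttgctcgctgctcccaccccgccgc
Igf1: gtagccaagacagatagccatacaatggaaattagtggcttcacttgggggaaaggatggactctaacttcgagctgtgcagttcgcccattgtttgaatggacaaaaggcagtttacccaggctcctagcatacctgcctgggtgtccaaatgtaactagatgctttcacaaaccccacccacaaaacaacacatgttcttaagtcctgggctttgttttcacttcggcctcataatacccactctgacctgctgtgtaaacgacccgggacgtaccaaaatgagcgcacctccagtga
Capitals mark TATATA, which begins at position -46 in Igfbp3 and stands in 6.15% of all windows. In all, 7 motifs were searched on both strands: that string, the TATA box variant TATAAA (14.2% of all windows), the GC box GGGCGG (33.1%), the E-box core CACGTG (6.42%), the CCAAT box (37.5%), the STAT motif TTCNNNGAA (8.87%) and the FOXO motif GTAAACA (3.78%). The first of these can share letters with the TATA box variant, and it and the E-box core read the same on both strands. Igf1 held none of the 7, and Igfbp3 held only the one in capitals. A match is a string of letters and not a measured site, and a window without a match says nothing of the factor. The windows differed in base make-up, with 71.7% G and C in Igfbp3 and 48.3% in Igf1, against a median of 51.7% over all windows.

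Igfbp7, a secreted protein with low affinity for IGFs, moved the other way. It stood at 426 and 450 RPM in the Crat hairpin libraries and at 561 and 532 RPM in the control libraries. Both Crat hairpin libraries lay below both controls, with 137 reads or more in each library. Group means were 438 ± 16.7 RPM and 547 ± 20.8 RPM (SD, n = 2 each), and Igfbp7 fell by 0.32 ± 0.08 on the log2 scale (SE; limma adjusted p = 0.0159), 0.47 below the median of all genes (-0.47). The Igfbp7 log2 fold change was -0.51 under median-of-ratios scaling and -0.52 under TMM scaling. The call was lost without control replicate 1 (adjusted p = 0.290), without control replicate 2 (adjusted p = 0.0629) and when the variance trend was left out (adjusted p = 0.293). The authors' deposited table gives Igfbp7 an adjusted p of 3.3e-04.

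The Igfbp7 window, chr14:31091486-31091785 on the plus strand of GRCr8, is shown as that of the binding protein that fell, with its GC boxes (GGGCGG on either strand) in capitals.
Igfbp7: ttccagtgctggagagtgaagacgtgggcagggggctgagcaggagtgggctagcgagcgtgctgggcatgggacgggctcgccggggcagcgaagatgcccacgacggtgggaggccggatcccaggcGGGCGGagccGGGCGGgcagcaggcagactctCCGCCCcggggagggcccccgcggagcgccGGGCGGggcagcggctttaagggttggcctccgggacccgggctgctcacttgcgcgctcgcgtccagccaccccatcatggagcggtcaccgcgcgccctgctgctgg
It holds 4 GC boxes, Igf2r holds 2, and Igf1r and Igfbp2 hold 1 each. Of all windows, 33.1% hold at least 1.

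The other 4 binding proteins did not pass the test, and their reads were few in Crat hairpin replicate 1. Igfbp4, which is cleaved by the protease PAPP-A, stood at 34.2 and 29.6 RPM in the Crat hairpin libraries and at 42.1 and 34.0 RPM in the control libraries. The groups overlapped, and its log2 fold change was -0.24 ± 0.23 (SE; limma adjusted p = 0.518; 95% interval from -0.77 to 0.28). Igfbp4 passed in 1 of 17 alternatives, edgeR on the recovered reads, which also rescales by TMM (log2 fold change -0.63, adjusted p = 0.0152). It did not pass by DESeq2 on the same reads (-0.51, adjusted p = 0.577). Nor did it by limma under TMM scaling (-0.44, adjusted p = 0.244).

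Igfbp5, which binds the extracellular matrix, stood at 15.6 and 24.6 RPM in the Crat hairpin libraries and at 24.8 and 24.2 RPM in the control libraries. Only Crat hairpin replicate 1 was low, and it held 5 reads, with an exact 95% Poisson interval from 5.05 to 36.3 RPM that spans the other 3 libraries. The Igfbp5 log2 fold change was -0.31 ± 0.31 (SE; limma adjusted p = 0.534), and 0.0072 without that library.

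Igfbp6, which prefers IGF2, stood at 21.8 and 9.24 RPM in the Crat hairpin libraries and at 17.4 and 18.2 RPM in the control libraries. The Crat hairpin libraries lay on either side of the controls, with 7 and 15 reads. The Igfbp6 log2 fold change was -0.30 ± 0.41 (SE; limma adjusted p = 0.659). It depends on which Crat hairpin library is kept: -0.88 without replicate 1 and 0.28 without replicate 2. By edgeR the Igfbp6 change was -0.82 (adjusted p = 0.0492), and by DESeq2 it was -0.62 and did not pass (adjusted p = 0.696).

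Igfbp2 was near the limit of counting. It had 0 and 3 reads in the Crat hairpin libraries and 13 and 3 reads in the control libraries, or 0 and 1.85 RPM against 0.549 and 2.27 RPM. The exact 95% Poisson interval of the 0 reads in Crat hairpin replicate 1 reaches 11.5 RPM, so no difference was detectable at this depth (log2 fold change -0.42 ± 1.0, SE; limma adjusted p = 0.814). In RefSeq order Igfbp2 and Igfbp5 are neighbours, and so are Igfbp3 and Igfbp1, of which Igfbp1 was not analysed here.

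**Figure D2:**
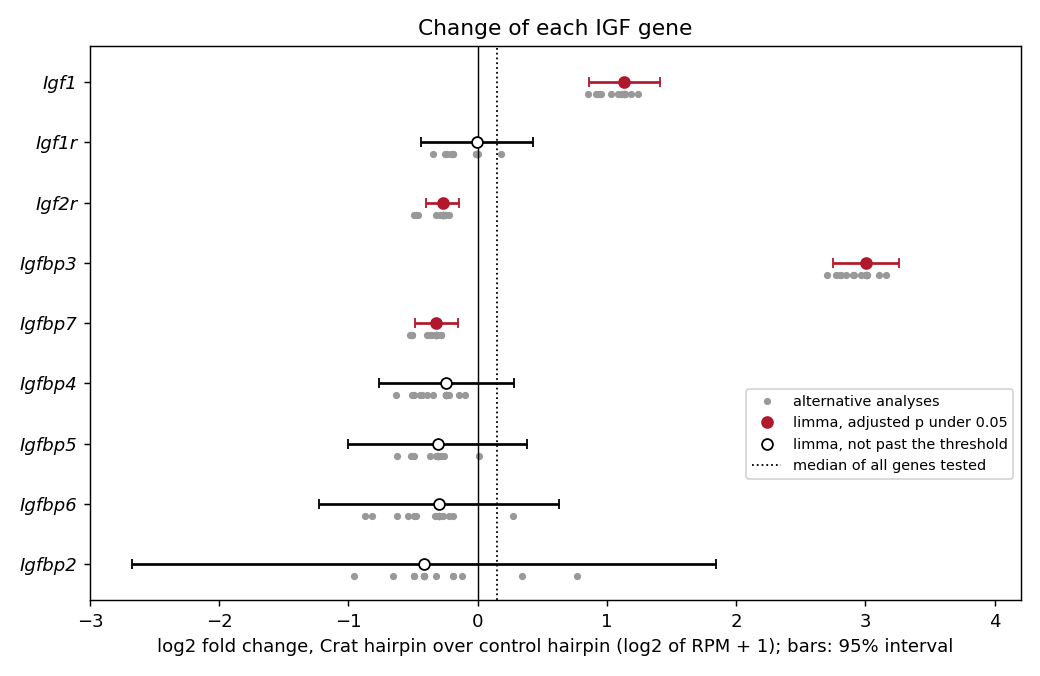
Log2 fold change of each IGF gene, Crat hairpin over control, with its 95% interval (limma on log2 of RPM + 1), and below it the values of the alternative analyses in grey. Igfbp3 and Igf1 lie to the right of 0 and of the dotted median of all genes (0.15) in every analysis, Igf2r and Igfbp7 to the left, and the intervals of the other 5 genes span 0.

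Summed over the 6 binding proteins, the level was 1770 and 1545 RPM in the Crat hairpin libraries and 798 and 743 RPM in the control libraries, a ratio of means of 2.15. Without Igfbp3 the sum was 498 and 515 RPM in the Crat hairpin libraries and 646 and 611 RPM in the control libraries, a ratio of 0.806. The sum of all 6 was higher in both Crat hairpin libraries, and the sum of the 5 others was lower in both. Most of the latter sum was Igfbp7, at 426 and 450 RPM in the Crat hairpin libraries and 561 and 532 RPM in the control libraries. Its lower value is thus mainly that of Igfbp7. Igfbp3 made up 71.9% and 66.7% of the binding protein reads in the Crat hairpin libraries and 19.0% and 17.8% in the control libraries. Igfbp7 made up 24.1% and 29.1% in the Crat hairpin libraries and 70.3% and 71.6% in the control libraries. These shares are of reads and not of transcripts, since lengths are not divided out, and they are compared between libraries only. Reads of Igfbp3 per read of Igf1 came to 4.87 and 4.54 in the Crat hairpin libraries and to 1.33 and 1.24 in the control libraries, so the binding protein differed more than the ligand did. These sums, shares and ratios are descriptions and were not tested.

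**Figure D3:**
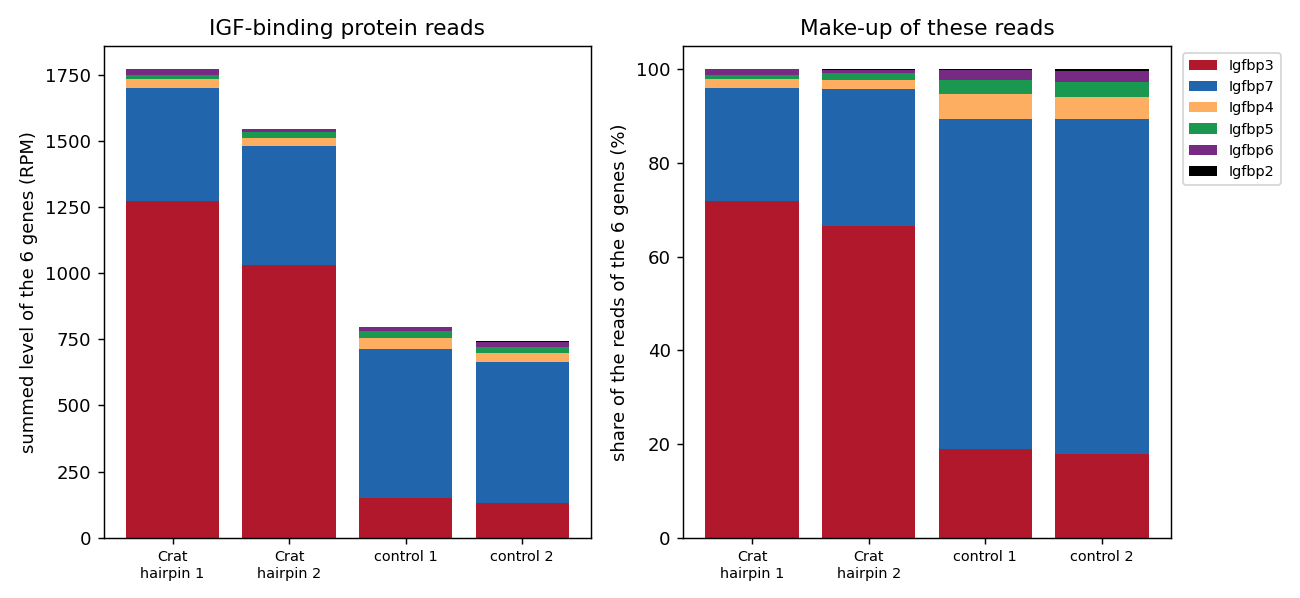
Reads of the 6 IGF-binding proteins in each library, as summed RPM (left panel) and as percent of their sum (right panel), Crat hairpin libraries left of control libraries. The Igfbp3 segment is 71.9% and 66.7% of the bar in the Crat hairpin libraries and 19.0% and 17.8% in the control libraries.

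The genes around the 9 members were counted in 4 lists of 68 genes, of which 59 were tested. Beside each count below stands the share of all genes tested, 12.6% higher and 6.36% lower. Pappa2 and Foxo6 stayed below the mean of 1 RPM, and Igfbp1, Igfbpl1, Igfals, Pappa, Insrr, Irs4 and Socs3, looked for by symbol without a match, were not analysed here. Of 16 tested genes of ligand supply and binding protein turnover, 3 rose and 2 fell, and with median-of-ratios scaling 2 did each. Jak2, the kinase of the growth hormone receptor and of several cytokine receptors, stood at 342 and 259 RPM in the Crat hairpin libraries and at 75.1 and 69.6 RPM in the control libraries, a log2 fold change of 2.03 ± 0.15 (SE; limma adjusted p = 1.1e-05). Igf2bp2, which binds mRNAs including that of Igf2, rose by 1.24 and Cish, a feedback inhibitor of cytokine receptors, by 0.81. Cish did not pass under median-of-ratios scaling (limma adjusted p = 0.0813), and Igf2bp2 did (limma adjusted p = 0.0246). By DESeq2 neither passed (adjusted p = 0.0588 for Igf2bp2 and 0.332 for Cish), while edgeR called both. The authors' deposited table gives Igf2bp2 an adjusted p of 0.0888 and Cish of 0.429. Adam9, a membrane metalloprotease, fell by 0.54 and Htra1, a secreted serine protease, by 0.31. The ligand Igf2 had a log2 fold change of -0.25 ± 0.41 (SE; limma adjusted p = 0.715), with 3 and 12 reads in the Crat hairpin libraries and 228 and 14 in the control libraries. The growth hormone receptor Ghr, at 84.0 and 98.0 RPM in the Crat hairpin libraries and 72.1 and 71.9 RPM in the control libraries, did not pass (log2 fold change 0.33; adjusted p = 0.185).

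Of 12 tested insulin receptor family and adaptor genes, 3 fell and 0 rose by limma, with 3 rises and 3 falls at an unadjusted p under 0.05. DESeq2 counted 0 rises and 3 falls, and edgeR 0 and 4. Without a variance trend limma counted 0 in each direction, with 0 rises and 2 falls at an unadjusted p under 0.05. Grb14, an adaptor that inhibits the insulin receptor, stood at 59.1 and 37.0 RPM in the Crat hairpin libraries and at 106 and 101 RPM in the control libraries, a log2 fold change of -1.13 ± 0.22 (SE; limma adjusted p = 0.0063). The phosphatase Ptpn11 fell by 0.57 and the adaptor Shc1 by 0.54. Insr, the insulin receptor, had a log2 fold change of 0.31 (adjusted p = 0.326), Irs1 of -0.03 (adjusted p = 0.920) and Irs2 of 0.42 (adjusted p = 0.124).

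Of 20 genes of PI3K, AKT and mTOR, 3 rose and 0 fell by limma, with 6 rises and 0 falls at an unadjusted p under 0.05. Rictor, the scaffold of mTOR complex 2, rose by 0.68, Rheb, the GTPase that activates mTOR complex 1, by 0.56, and the kinase Akt2 by 0.50. These calls depend on the scaling and on the test. With median-of-ratios or TMM scaling or quantile normalization the counts were 0 in each direction (median-of-ratios: 2 rises and 3 falls at an unadjusted limma p under 0.05). At the scaling as deposited, limma without a variance trend also counted 0 in each direction, with 3 rises and 0 falls unadjusted. DESeq2 and the authors' deposited table gave 0 as well, while edgeR counted 1 rise and 1 fall.

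Of 11 tested FOXO factors and their textbook targets, 4 rose and 0 fell by limma, with 5 rises and 1 fall at an unadjusted p under 0.05. AKT is known to keep FOXO factors out of the nucleus. Klf15, a transcription factor, rose by 1.48 ± 0.36 (SE), the cell death gene Bcl2l11 by 1.37 ± 0.25, the sestrin Sesn3 by 1.29 ± 0.26 and the ubiquitin ligase subunit Fbxo32 by 0.86 ± 0.19. With median-of-ratios scaling there were 4 rises and 1 fall, the fall being Cdkn1b (log2 fold change -0.88, adjusted p = 0.0250). DESeq2 called 2 rises, Bcl2l11 and Sesn3, and lost Klf15 (adjusted p = 0.139) and Fbxo32 (adjusted p = 0.169), while the authors' deposited table called 1, Sesn3. Quantile normalization also lost Fbxo32 (limma adjusted p = 0.0625). Without a variance trend limma called 0 in either direction, with 4 rises and 0 falls at an unadjusted p under 0.05. Without control replicate 1 it likewise called 0, with 5 and 0 unadjusted, and without control replicate 2 it called 2 rises. The factors themselves, Foxo1, Foxo3 and Foxo4, had log2 fold changes of 0.32, 0.53 and 0.11 and did not pass (limma adjusted p = 0.682, 0.370 and 0.772). Over the 4 lists 10 genes rose and 5 fell of 59 tested, or 16.9% and 8.47%, beside 12.6% and 6.36% of all genes. Their median was 0.17, beside 0.15 over all genes. With median-of-ratios scaling 6 rose and 6 fell. The counts also turn on single libraries: without control replicate 1 there was 1 rise, Jak2, and 0 falls (limma; 11 and 3 at an unadjusted p under 0.05), without control replicate 2 there were 4 and 1, without Crat hairpin replicate 1 there were 17 and 7, and without Crat hairpin replicate 2 there were 20 and 9.

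**Figure D4:**
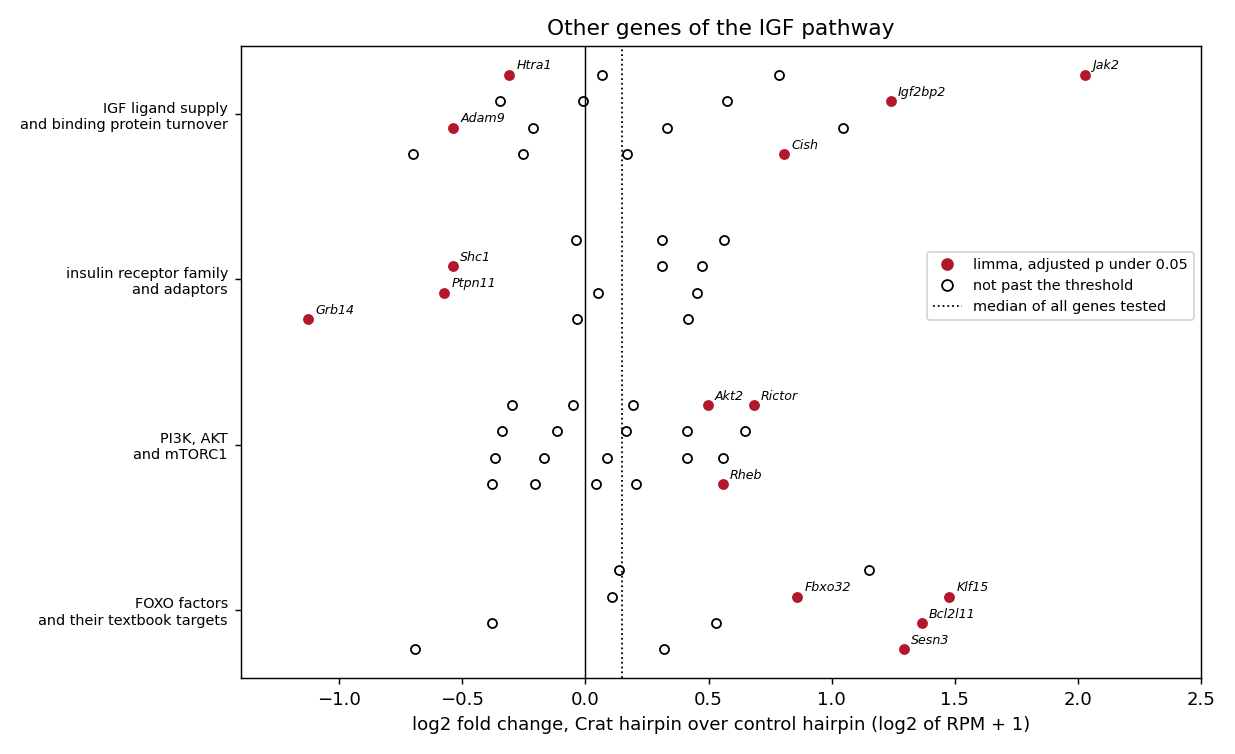
Log2 fold change, Crat hairpin over control, of the tested genes of 4 pathway lists, 1 point a gene, with genes past the limma threshold filled and named. Jak2 at 2.03 lies furthest right and Grb14 at -1.13 furthest left, and most open points lie near the dotted median of all genes at 0.15.

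Genes of 5 lists of cell type markers were counted in the same way, beside 12.6% higher and 6.36% lower of all genes tested. In bulk samples fewer cells of a type and less RNA per cell cannot be told apart. Of 6 tested cardiomyocyte markers 5 fell. Ryr2 was the exception, with a log2 fold change of -0.02 (95% interval from -0.25 to 0.21). The 6 markers summed to 5990 and 6304 RPM in the Crat hairpin libraries and to 14992 and 15449 RPM in the control libraries. Myh6 and Tnnt2, with log2 fold changes of -1.58 and -1.21, made up most of these reads, so the sum mainly follows those genes. Of 8 smooth muscle and pericyte markers 5 fell and 1 rose. Their sums were 1869 and 1797 RPM in the Crat hairpin libraries and 5165 and 5273 RPM in the control libraries. The marker that rose was Pdgfrb (log2 fold change 0.37, limma adjusted p = 0.0057). The authors' deposited table gives Pdgfrb an adjusted p of 0.504. With median-of-ratios or TMM scaling and by DESeq2, 0 of these markers rose and 5 fell. Rises numbered 1 by edgeR and 2 with quantile normalization, with 5 falls in both. Rgs5 did not pass (limma adjusted p = 0.245). It held 0 and 4 reads in the Crat hairpin libraries and 121 and 5 in the control libraries. Markers of fibroblasts, which are known to secrete IGF1 and binding proteins, fell in 5 of 10 cases and rose in 3, with a median log2 fold change of -0.21, but with quantile normalization 2 fell and 4 rose, and the median was 0.15. Their sums were 13069 and 13112 RPM in the Crat hairpin libraries and 15320 and 16027 RPM in the control libraries. Most reads of that sum were of Col1a1, Col1a2 and Postn, which fell (log2 fold changes -0.23, -0.63 and -0.19). Col1a1 stood at 6656 and 6688 RPM in the Crat hairpin libraries and at 7512 and 8134 RPM in the control libraries. Thy1 (-2.39) and Fap also fell, and Fap was at 0 in Crat hairpin replicate 1. The 3 fibroblast markers that rose were Pdgfra (2.10), Dcn (1.12) and Ddr2 (0.33). Endothelial markers summed to 56.0 and 55.5 RPM in the Crat hairpin libraries and to 46.4 and 54.5 RPM in the control libraries. Of the 5 tested 1 rose and 1 fell. Vwf was not tested, with 0 reads in both Crat hairpin libraries and 9 and 1 reads in the control libraries. None of 8 leukocyte markers passed limma, edgeR or DESeq2, with 0 at an unadjusted limma p under 0.05. They summed to 49.8 and 57.3 RPM in the Crat hairpin libraries and to 48.9 and 49.9 RPM in the control libraries. Csf1r was at 0 in Crat hairpin replicate 1, where a read is worth 3.11 RPM. Its control values were 2.58 and 3.03 RPM. Without a variance trend 1 cardiomyocyte marker and 3 smooth muscle and pericyte markers fell, and 1 fibroblast marker rose. The part of these markers in the IGF results was not tested.

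The genes whose pattern over the 4 libraries was most like that of each called member were found by the root mean square difference of log2(RPM + 1), centred on each gene's mean, among 10056 other named genes whose mean level reached 5 RPM. For Igfbp3 they were Tmem171 (difference 0.021), with 1 read in control replicate 2, and Sdc4 (0.046), a cell surface proteoglycan at 327 and 244 RPM in the Crat hairpin libraries and 35.6 and 31.0 RPM in the control libraries. For Igf1 they were Ifnar2 (0.016), a chain of the type I interferon receptor, and Sh3pxd2b (0.017), an adaptor of podosomes. Csrp3, a muscle LIM protein, was nearest to Igf2r (0.0074), followed by Gpatch2l (0.011), with 5 reads in Crat hairpin replicate 1. Neither passed the test (limma adjusted p = 0.0845 for Csrp3 and 0.617 for Gpatch2l). The authors' deposited table gives Csrp3 an adjusted p of 0.0355. The ribosomal protein gene Rpl5 was nearest to Igfbp7 (0.013), followed by Dld (0.017), a dehydrogenase subunit. The likeness is over 4 libraries in 2 groups, and no correlation is given.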

How the data were processed

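Gene expression was measured in 4 libraries, 2 per group, grouped by their titles. Per the submitters' processing notes the tools were kallisto and DESeq2 (versions not listed) and the genome build was mRatBN7.2; how values were summed or rounded was not stated. The authors deposited 1 table. Per the file headers its library columns are TPM, yet the values of a library all fall on multiples of 1 step, within 0.02 of a read, so the deposited signal is RPM, without division by length. In each library 100% of values came out whole, which gives back the reads. Its p-value and adjusted p-value columns are the authors' own, and per the file headers no test is named for them. The 14318 rows hold 14137 gene identifiers; 140 stand on several rows with the same values and were used once.

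Genes whose mean reached 1 RPM were tested on log2(RPM + 1) values by limma 3.58.1 (R 4.3.3), using a variance trend. An exact permutation test of 2 against 2 libraries cannot go below p = 0.333. The chi-square of reads within a pair was 1.29 per degree of freedom for the Crat hairpin pair and 1.47 for the control pair, so neither pair is 1 library within counting error. Alternatives were other pseudocounts, filters and scalings, other variance priors, each library left out, a replicate block, edgeR 4.0.16 and DESeq2 1.42.0 on recovered reads, and the authors' adjusted p. edgeR called 3839 genes and DESeq2 1613, against 2454 by limma.

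The members and lists were chosen with earlier results of these data known. Named were all members, Crat, up to 3 list genes past the threshold per direction by size, and the 2 genes most like each called member; Igf2, Ghr, Insr, Irs1, Irs2, the FOXO factors, Fbxo32, Cdkn1b and the markers named were chosen after their values were seen. Poisson intervals cover counting error only. Gene symbols come from the table; promoter sequences and gene order come from RefSeq on GRCr8, matched by symbol for all 9 members, and no gene coordinates are converted between builds.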

Additional observations from a re-analysis of the deposited data

How the results depend on the processing

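Igfbp3 was called higher in all 17 alternatives and Igf1 in 16; Igf2r was called lower in 15 and Igfbp7 in 14, and none of these 4 changed direction in any. Of the members, 2 were called higher and 2 lower, but without a variance trend 1 and 0 (limma; 2 and 0 at an unadjusted p under 0.05), and edgeR called 4 lower. With each library left out in turn the falls among members numbered 0 to 3 and the rises 2. All genes called numbered 2454, but 345 without a variance trend, 601 to 6252 with a library left out, 3839 by edgeR, 1613 by DESeq2 and 1486 in the authors' table. Pathway genes called higher numbered 10, but 6 under median-of-ratios scaling, 6 under TMM scaling, 5 under quantile normalization, 1 without a variance trend, 1 to 20 with a library left out, 3 by DESeq2 and 2 in the authors' table. Those called lower numbered 5, but 0 without a variance trend (limma; 4 at an unadjusted p under 0.05), 0 to 9 with a library left out and 11 by edgeR. For the fits by other tools and scalings the cause was not tested. Leaving out a library also leaves 1 library in its group, assumed to vary like the others. The spread then comes from the pair of the other group alone. Counts from such fits therefore cannot show how far a result rests on the values of the library left out. Signs turned only in members that did not pass: Igf1r (log2 fold change from -0.19 to 0.18 with a library left out, and 0.0013 without Crat hairpin replicate 2), Igfbp2 (-0.95 to 0.34, and 0.77 by edgeR), Igfbp5 (-0.62 to 0.0072) and Igfbp6 (-0.88 to 0.28). With the replicate number as a block 2 members rose, 2 fell and 2596 genes were called. Deviations of same-numbered libraries correlated at 0.023 over 4325 genes. This value cannot decide whether those libraries were paired, because counting error in Crat hairpin replicate 1 (321516 reads) could hide a shared preparation. The labels give the replicate numbers and no pairing. Genes with few reads in Crat hairpin replicate 1, such as Igfbp2, Igfbp5 and Igfbp6, are limited by depth.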
